A study of Mus musculus with 6 samples.

Results

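Syndecans and glypicans are the core proteins that carry heparan sulfate on the cell surface. They were chosen by name, with earlier results of these data known, as the rows Sdc1 to Sdc4, Gpc1, Gpc3, Gpc4 and Gpc6 of a table of 12803 genes. Of these 8 genes, 7 were listed and tested, and Gpc3 was not analysed here. The values came from RNA-seq of 6 libraries of cultured mouse kidney cells. In the KO group were 3 libraries, from a line derived from podocytes with the genotype Myosin 1e KO. In the WT group were 3 libraries from Mundel murine podocyte cells, given as WT. No treatment or animal age is named for either group. Each genotype was a single line, so a difference between the groups cannot be told apart from any other difference between the lines. The labels do not say how the cultures of a group were kept apart, so p-values measure the spread between these libraries only.

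Syndecans cross the membrane once and end in a short cytoplasmic tail that meets PDZ proteins and the actin skeleton. Glypicans hang from a lipid anchor on the outer face of the membrane. The sulfated chains of both families bind growth factors, morphogens, chemokines and matrix proteins, and so hold them near their receptors. Podocytes, the cells that wrap the glomerular capillaries, carry such proteoglycans on the surface that faces the basement membrane.

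The listed genes held 35447096 to 42106461 reads per library, and levels are given in CPM (counts-per-million), as means ± SD with n = 3. Differences were tested with limma on log2 CPM over 12616 genes, and the threshold was a p of 0.05 after Benjamini-Hochberg adjustment over all of them. Myo1e, the targeted gene, had 18.9, 16.3 and 16.8 CPM in the KO libraries, against 184, 180 and 168 CPM in the WT libraries (log2 fold change -3.35, SE 0.09, limma adjusted p = 2.06e-08). Of 14 podocyte markers, 9 were tested, with 3 higher and 5 lower in KO. Their summed level was 1313 to 1654 CPM in KO and 2197 to 2533 CPM in WT. Most of the KO sum was Nes and Cd2ap, at 627 ± 112 and 390 ± 26.8 CPM in KO, against 449 ± 85.4 and 275 ± 38.5 CPM in WT. The sum therefore does not show how far each of the 5 lower genes fell. The widest difference among these was that of Plce1, at 1.37 ± 0.235 CPM in KO and 226 ± 65.2 CPM in WT. Nphs1, a slit diaphragm marker of mature podocytes, was not among the genes analysed here. Podxl averaged 106 ± 8.36 CPM in KO and 50.4 ± 4.71 CPM in WT, and Synpo 209 ± 71.2 CPM in KO and 681 ± 59.5 CPM in WT. Wt1, named although its level was under the 5 CPM asked of named genes, had 0.0492, 0.0856 and 0.239 CPM in KO. In WT it had 6.39, 4.40 and 2.40 CPM. All 11 markers of simple epithelium passed and were higher in KO, with a summed level of 8196 to 8920 CPM in KO and 4.71 to 7.97 CPM in WT, where Cldn3, Cldn7 and Esrp1 were at 0 reads. Of 11 tested mesenchymal markers 9 were lower in KO and 2, Fn1 and Cdh2, were higher. Their summed levels were 8450 to 14037 CPM in KO and 7203 to 7654 CPM in WT. Most of the KO sum was Fn1, at 10635 ± 2778 CPM in KO and 4294 ± 34.4 CPM in WT, so the sum does not reflect the 9 lower genes. Among those, Vim averaged 3.44 ± 1.63 CPM in KO and 2168 ± 257 CPM in WT. Of 8 endothelial markers 0 were listed, so none was analysed here. Of 8 leukocyte markers 2 were tested and neither passed, with summed levels of 56.2 to 75.5 CPM in KO and 37.1 to 56.9 CPM in WT.

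The lines differed in which syndecans and glypicans they expressed. Sdc2 and Gpc6 fell to 3.97% and 6.97% of their mean WT level, Gpc4 and Sdc4 fell less, Sdc1 and Sdc3 rose, and Gpc1 did not pass. In all, 2 of 7 members were higher in KO and 4 were lower, or 6 of 7 that passed. Over all genes tested 68.1% passed, 34.3% higher and 33.8% lower. With only 7 members a single gene shifts such a share widely, and no test against this background was run. At least 2-fold changes were called in 3 members, all lower, against 16.2% of all genes for lower and 11.7% for higher. The groups did not overlap in 6 of 7 members, against 73.5% of all genes. KO was the higher group in 2 of these 6 and the lower one in 4, against 37.2% and 36.4% of all genes. The median log2 fold change of the 7 members was -0.57, and that of all genes was 0.01. The median size regardless of sign was 0.88 for the members and 0.51 for all genes. In these bulk samples, fewer cells that express a gene and less RNA per cell cannot be told apart. The epithelial and mesenchymal markers above moved with the same comparison, and their part in the differences of the members was not tested.

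**Figure D1:**
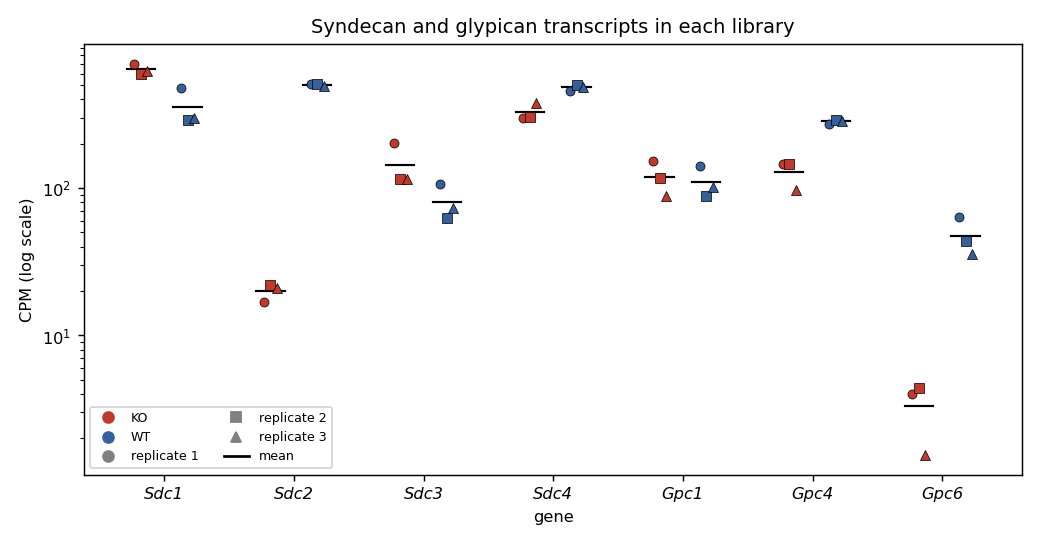
Level of each of the 7 genes in CPM on a log axis, with KO libraries on the left and WT libraries on the right of each gene. Symbols mark replicates and lines mark group means. The groups overlap only for Gpc1, and the widest gaps between them are those of Sdc2 and Gpc6.

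Sdc2, the syndecan known mainly from mesenchymal and endothelial cells, showed the widest difference. The protein-coding gene (ENSMUSG00000022261) spans 32920723 to 33034935 of chromosome 15, plus strand, in GRCm38. Sdc2 had 16.8, 22.1 and 21.1 CPM in the KO libraries, against 509, 511 and 492 CPM in the WT libraries. All KO libraries lay far below all WT libraries, and the WT values were the least scattered of any member, with a coefficient of variation of 2.02%. The mean was 19.99 ± 2.79 CPM in KO and 504 ± 10.2 CPM in WT. The log2 fold change was -4.66 (95% interval -4.91 to -4.42, SE 0.11, limma adjusted p = 1.08e-08), which is larger in size than in 94.2% of the genes tested. The KO libraries still held 684, 774 and 794 reads of the gene, so its level there was well above the 0.0738 to 0.0856 CPM that 3 reads are worth.

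Sdc1, the main syndecan of epithelia and also a surface marker of plasma cells, moved the other way. It spans 8771323 to 8793715 of chromosome 12, plus strand. It had 701, 594 and 626 CPM in KO and 479, 291 and 301 CPM in WT. The KO values were all above the WT values, and the first WT library stood well above the other two of its group. Sdc1 averaged 640 ± 54.8 CPM in KO and 357 ± 106 CPM in WT, a log2 fold change of 0.88 (95% interval 0.46 to 1.30, SE 0.18, adjusted p = 0.00284).

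Sdc4, a widely expressed syndecan that sits in focal adhesions and binds protein kinase C alpha, fell moderately. It lies on the minus strand of chromosome 2, from 164424247 to 164443887. It had 297, 306 and 379 CPM in KO, against 455, 505 and 487 CPM in WT. The groups were apart, with the third KO library nearest to WT. The means were 327 ± 44.8 CPM in KO and 482 ± 25.5 CPM in WT (log2 fold change -0.57, 95% interval -0.82 to -0.32, adjusted p = 0.00175).

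Sdc1 and Sdc4 carried most syndecan reads in KO while moving in opposite directions, and their promoters are shown for that reason. The sequences are the 250 bases before the RefSeq transcription start (GRCm38.p6), 5′ to 3′ on the gene's strand, at chr12:8771146-8771395 on the plus strand for Sdc1 and chr2:164443189-164443438 on the minus strand for Sdc4. The gene spans given above are from GENCODE M21, which places the starts differently. The whole Sdc4 window and the end of the Sdc1 window lie inside those spans. Positions below therefore hold for the RefSeq start only. Capitals mark matches to a GC box (GGGCGG) or a TATA element (TATAA), on either strand.
Sdc1: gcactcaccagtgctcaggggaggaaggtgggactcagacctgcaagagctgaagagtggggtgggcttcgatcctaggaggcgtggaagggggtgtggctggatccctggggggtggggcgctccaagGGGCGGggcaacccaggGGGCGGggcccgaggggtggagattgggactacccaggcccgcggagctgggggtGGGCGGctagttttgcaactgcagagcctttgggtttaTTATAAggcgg
Sdc4: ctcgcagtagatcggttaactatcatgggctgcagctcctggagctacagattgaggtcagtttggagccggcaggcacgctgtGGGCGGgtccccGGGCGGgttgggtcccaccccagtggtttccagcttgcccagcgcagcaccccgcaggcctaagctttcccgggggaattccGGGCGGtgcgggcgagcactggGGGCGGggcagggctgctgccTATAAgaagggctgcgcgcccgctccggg
Both windows held several GC boxes, 3 for Sdc1 and 4 for Sdc4, a motif found in 32.7% of 32851 windows of the same length. TATAA or its reverse complement was present in both as well, against 22.8% of all windows. In Sdc1 its matches on the opposite strands overlapped and began 11 and 10 bases before the start, and in Sdc4 the match began 29 bases before it. The E-box CACCTG, searched on both strands and present in 17.2% of windows, was found in neither. Of the 7 members, 4 had a promoter in the RefSeq table, the others being Sdc3, with 3 GC boxes, and Gpc4, with 1, and neither held a TATAA match or that E-box. The GC content was 66.0% for Sdc1, 68.0% for Sdc4, 76.4% for Sdc3 and 68.4% for Gpc4, against a median of 52.4%.

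Sdc3, known mainly from neural and musculoskeletal tissue, was higher in KO, but the call rested on single libraries. It lies on chromosome 4 from 130792537 to 130826319, plus strand, and had 204, 114 and 115 CPM in KO and 107, 62.7 and 73.4 CPM in WT. The groups did not overlap, although the first library of each group was well above the others of that group. The means were 144 ± 51.4 CPM in KO and 81.0 ± 23.1 CPM in WT (log2 fold change 0.81, 95% interval 0.22 to 1.40, adjusted p = 0.0213). Without KO replicate 1 the log2 fold change was 0.54 (adjusted p = 0.0595). It was 0.65 without WT replicate 2 (adjusted p = 0.071) and 0.76 without WT replicate 3 (adjusted p = 0.0531). Over the 15 alternatives the limma adjusted p ran from 0.000298, with the replicate number as a block, to 0.071. Exons of 2 antisense genes overlap those of Sdc3 by 415 and 48 bases, and the strand setting of the counting is not given in the sources used here.

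**Figure D2:**
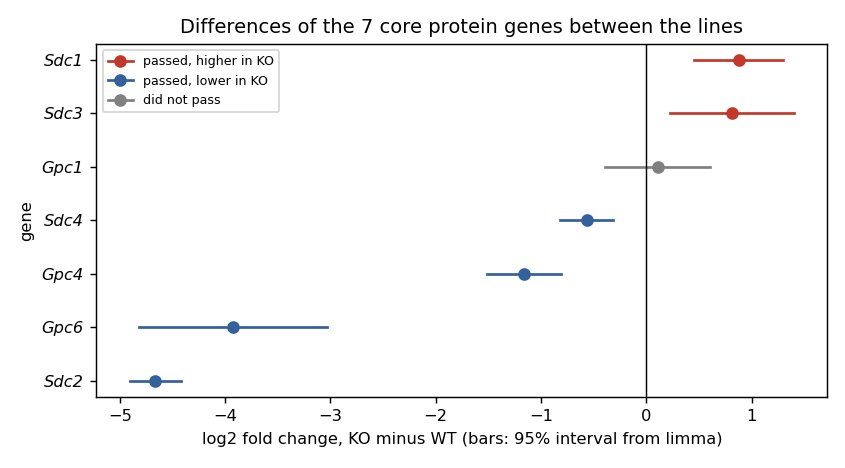
Log2 fold change of each member, KO minus WT, as points with the 95% interval from limma as bars, ordered from the highest at the top. The intervals of Sdc1 and Sdc3 lie above 0, that of Gpc1 (-0.39 to 0.60) includes 0, and the other 4 lie below 0.

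Among the glypicans, Gpc6 and Gpc4 fell and Gpc1 did not pass. Gpc6, whose human counterpart is mutated in the skeletal disorder omodysplasia, spans more than a megabase of chromosome 14 (116925315 to 117976544, plus strand). It had 3.99, 4.42 and 1.54 CPM in KO, against 63.7, 43.6 and 35.5 CPM in WT. The groups were far apart, with the third KO library lowest. The KO values rested on 162, 155 and 58 reads. The means were 3.32 ± 1.55 CPM in KO and 47.6 ± 14.5 CPM in WT (log2 fold change -3.93, 95% interval -4.82 to -3.04, SE 0.39, adjusted p = 3.5e-05).

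Gpc4, a glypican of epithelia and of the developing nervous system and kidney, had 145, 146 and 96.4 CPM in KO and 274, 292 and 286 CPM in WT. Again all KO libraries lay below all WT libraries and the third KO library was lowest. The means were 129 ± 28.3 CPM in KO and 284 ± 9.07 CPM in WT (log2 fold change -1.16, 95% interval -1.52 to -0.81, adjusted p = 0.000192). The gene is on chromosome X from 52053021 to 52165252, minus strand, 107.2 kb from Gpc3 with 0 protein-coding genes annotated between them. Gpc6 has a glypican next to it as well, since Gpc5 lies 400.1 kb away with 0 protein-coding genes between. Gpc5 was not analysed here, so the members of neither pair could be compared.

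Gpc1, the most widely expressed glypican, had 152, 117 and 89.1 CPM in KO and 140, 88.9 and 102 CPM in WT. The groups overlapped almost fully. The means were 119 ± 31.6 CPM in KO and 110 ± 26.8 CPM in WT, with a log2 fold change of 0.11 that did not pass (adjusted p = 0.677). Its 95% interval of -0.39 to 0.60 leaves room for a change of either sign. The sign turned without KO replicate 1 (-0.085) and without WT replicate 2 (-0.035). The gene lies on chromosome 1 from 92831645 to 92860779, plus strand, and shares 977 exonic bases with the opposite-strand gene Ankmy1. As the strand setting of the counting is not given, it is not known whether reads of the overlap were told apart. Gpc2, a glypican of the nervous system outside the named members, was low at 2.81, 2.77 and 3.13 CPM in KO and 2.34, 1.55 and 1.16 CPM in WT. It shares 2376 exonic bases with Gm43720 on the same strand, so its reads could not be assigned with certainty.

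Levels were compared between genes per kilobase of exon, as CPM divided by the summed exon length in GENCODE M21. In KO the order was Sdc1 at 168 ± 14.4, Sdc4 at 128 ± 17.6, Gpc4 at 48.7 ± 10.7, Sdc3 at 24.1 ± 8.58, Gpc1 at 23.1 ± 6.12, Sdc2 at 5.67 ± 0.79 and Gpc6 at 0.516 ± 0.242 CPM per kilobase. Of these neighbours, the libraries of Sdc3 and Gpc1 overlapped. In WT the order was Sdc4 at 189 ± 10.01, Sdc2 at 143 ± 2.89, Gpc4 at 107 ± 3.42, Sdc1 at 93.7 ± 27.9, Gpc1 at 21.4 ± 5.19, Sdc3 at 13.5 ± 3.86 and Gpc6 at 7.41 ± 2.26 CPM per kilobase. There the libraries of Gpc4 overlapped those of Sdc1, and those of Gpc1 overlapped those of Sdc3. Sdc1 thus led in KO and ranked below Sdc4, Sdc2 and Gpc4 in WT, while Sdc2 was above only Gpc6 in KO and below only Sdc4 in WT. The level of Sdc1 per kilobase was 38.6, 24.9 and 27.5 times that of Sdc2 in the KO libraries, against 0.872, 0.527 and 0.565 times in the WT libraries. This ratio is taken within a library and does not depend on the scaling between libraries.

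**Figure D3:**
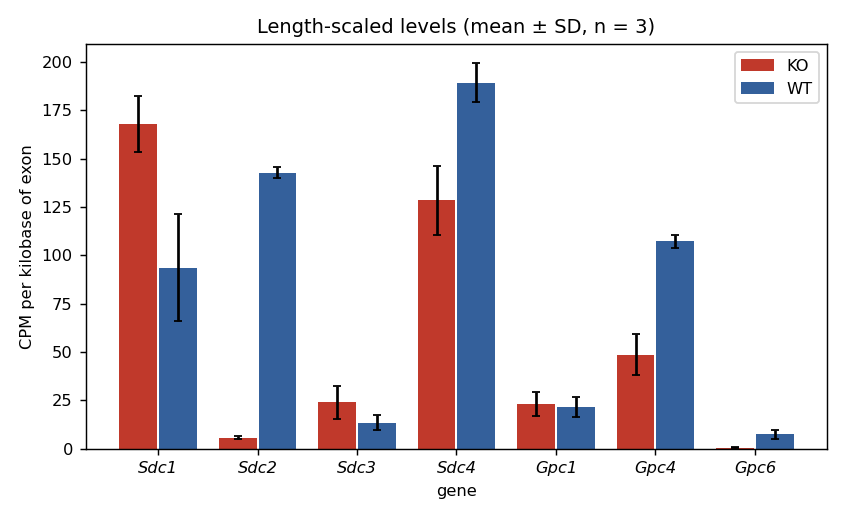
CPM per kilobase of exon for each member, as bars of the group mean with SD (n = 3), KO left of WT. Sdc1 is the highest bar in KO and Sdc4 in WT, and Sdc2 is near the bottom in KO at 5.67 and next to Sdc4 in WT at 143.

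The totals of both families were lower in every KO library than in any WT library. The 4 syndecans summed to 1218, 1036 and 1141 CPM in KO and 1550, 1369 and 1354 CPM in WT. The 3 glypicans summed to 301, 267 and 187 CPM in KO and 479, 425 and 423 CPM in WT. Of the syndecan reads, Sdc1 made up 56.6 ± 1.45% in KO and 24.8 ± 5.34% in WT. Sdc2 made up 1.79 ± 0.379% of them in KO and 35.5 ± 2.36% in WT. Sdc4 kept a similar share, 29.0 ± 4.43% in KO and 34.1 ± 4.12% in WT, with overlapping libraries. Sdc3 held 12.6 ± 3.59% in KO and 5.63 ± 1.18% in WT. Of the glypican reads, Gpc1 made up 47.3 ± 3.38% in KO and 24.8 ± 4.25% in WT, Gpc4 51.4 ± 3.20% in KO and 64.6 ± 6.29% in WT, and Gpc6 1.27 ± 0.42% in KO and 10.7 ± 2.48% in WT. Gpc1 therefore took a larger share in KO without passing the test of its level. The shares above are not scaled for gene length. Per kilobase of exon, Gpc1 made up 31.9 ± 2.91% of the glypicans in KO and 15.7 ± 3.34% in WT. Gpc4 made up 67.4 ± 2.84% in KO and 78.9 ± 4.63% in WT on that scale. All these shares are descriptions without a test.

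**Figure D4:**
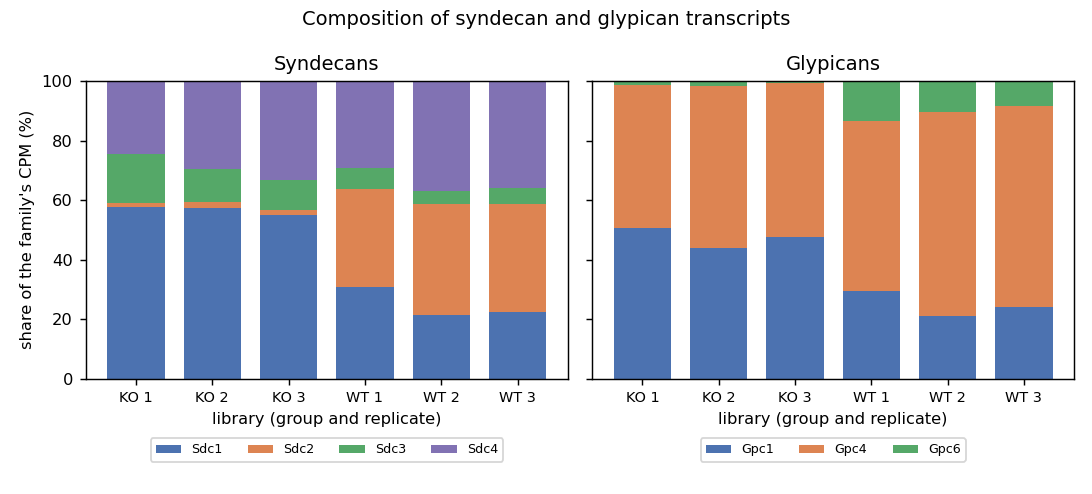
Share of each gene in the summed CPM of its family, in percent, as stacked bars for each library, with the KO libraries left of the WT libraries. Sdc2 makes up 1.38% to 2.13% in KO libraries, against 32.8% to 37.3% in WT libraries.

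The genes most like Sdc1 over the 6 libraries, by the root mean square difference of log2 CPM centred per gene, were Fam214b (0.0398), the stromelysin Mmp11 (0.0685) and Ydjc (0.0703). Fam214b averaged 63.6 ± 6.38 CPM in KO and 36.1 ± 9.78 CPM in WT. Those most like Sdc2 were the retinoic acid-degrading enzyme Cyp26b1 (0.0878), Cped1 (0.133) and 4833427G06Rik (0.154). Cyp26b1 averaged 6.91 ± 1.29 CPM in KO and 166 ± 3.91 CPM in WT. With 6 libraries in 2 groups, the likeness is mainly that of the difference between the lines.

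Genes that serve the core proteins were described by 13 lists, in which 126 of 159 genes were tested and 37 were higher and 59 lower in KO. Their median log2 fold change was -0.21, against 0.01 over all genes. Over all genes tested 34.3% were higher and 33.8% lower, which is the background for this count and for each list count below. No set test was run on the lists, which were drawn up with earlier results of these data known. Genes that build the heparan sulfate chain, or supply precursors for it or its linker, were lower more often than higher. For polymerisation and sulfation together, 13 were lower and 1 was higher of 20 tested.

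Of 7 tested genes that polymerise the chain or make sugar precursors for the chain or its linker, 6 were lower and 1 was higher. Their median log2 fold change was -0.52. Ext1 and Ext2 encode the polymerase that extends the chain. Ext1 had 347, 375 and 261 CPM in KO and 600, 564 and 604 CPM in WT (log2 fold change -0.86, adjusted p = 0.000512). Ext2 had 122, 123 and 121 CPM in KO and 223, 185 and 188 CPM in WT (-0.69, adjusted p = 0.000148). Ugdh, which makes the UDP-glucuronic acid that both are fed with, averaged 41.6 ± 2.71 CPM in KO and 101 ± 12.5 CPM in WT (-1.27, adjusted p = 1.03e-05). The higher gene was Extl1, named after its value was seen, at 1.6, 1.77 and 1.17 CPM in KO and 0.773, 0.750 and 1.13 CPM in WT. It did not pass without KO replicate 1, KO replicate 2, WT replicate 1 or WT replicate 2, where the count of higher genes was 0 by limma, and it was not tested under the stricter filter, which its level does not reach.

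Of 13 tested genes of sulfation and epimerisation, 7 were lower and 0 were higher by limma or by limma-voom on recovered reads, with a median log2 fold change of -0.27. At a limma p under 0.05 before adjustment, 1 was higher, namely Hs6st1. In the fits without KO replicate 3 or WT replicate 1 the count of higher genes was 1. The list's widest difference was that of Hs6st2, a 6-O-sulfotransferase, with 0.246, 0.314 and 0.292 CPM in KO, against 300, 322 and 276 CPM in WT (-9.92, adjusted p = 1.21e-09). Its relative Hs6st1 had 295, 318 and 252 CPM in KO and 236, 255 and 242 CPM in WT. It missed the threshold (0.23, adjusted p = 0.0632), except without KO replicate 3 (0.33, adjusted p = 0.00844). The 3-O-sulfotransferase Hs3st1 averaged 29.3 ± 6.25 CPM in KO and 79.7 ± 0.683 CPM in WT (-1.46, adjusted p = 3.8e-05). Ndst3, an N-sulfotransferase, averaged 4.54 ± 0.417 CPM in KO and 7.15 ± 0.738 CPM in WT.

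Genes of the tetrasaccharide that links the chain to the core protein went both ways, with 3 higher and 2 lower of 6 tested. The xylosyltransferase Xylt2 rose to 36.2 ± 2.54 CPM in KO, against 23.2 ± 2.07 CPM in WT, and the galactosyltransferase B4galt7 to 29.4 ± 1.66 CPM in KO, against 19.9 ± 1.72 CPM in WT. Pxylp1, the phosphatase that takes phosphate off the linker xylose, fell to 10.7 ± 0.874 CPM in KO, against 63.1 ± 17.3 CPM in WT (log2 fold change -2.53, adjusted p = 5.02e-06). Fam20b, the kinase for that phosphate, averaged 168 ± 13.7 CPM in KO and 141 ± 10.1 CPM in WT. Its call (adjusted p = 0.033) was lost without KO replicate 1 (0.102), KO replicate 3 (0.088), WT replicate 2 (0.0875) or WT replicate 3 (0.106), without the intensity trend (0.0616), and with libraries scaled by their totals (0.051). B3gat3 averaged 42.9 ± 1.25 CPM in KO and 50.8 ± 3.34 CPM in WT. Its call (adjusted p = 0.0271) was lost without KO replicate 1 (0.0851), KO replicate 2 (0.0692), WT replicate 1 (0.074) or WT replicate 2 (0.098). Each of these fits left 1 lower gene in the list. With the replicate number as a block the B3gat3 call was lost as well (0.0515). B3galt6, at 8.96 ± 0.128 CPM in KO and 10.4 ± 0.406 CPM in WT, did not pass (limma adjusted p = 0.12), except without the intensity trend (0.0424).

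All 3 tested genes that edit heparan sulfate outside the cell were lower in KO. Sulf1, a sulfatase that removes 6-O-sulfate, had 0.0492, 0.0285 and 0.133 CPM in KO, from 8 reads in all, against 81.6, 67.6 and 56.9 CPM in WT. Sulf2, which has the same activity, stayed abundant at 335, 304 and 246 CPM in KO and 460, 350 and 351 CPM in WT (log2 fold change -0.39, adjusted p = 0.0415). The call was lost in the fits without KO replicate 2 (adjusted p = 0.0708), KO replicate 3 (0.132), WT replicate 1 (0.12) or the intensity trend (0.0719). The transcripts for adding and for removing 6-O-sulfate thus had an abundant member in both lines, Hs6st1 and Sulf2, and a member that was near 0 in KO, Hs6st2 and Sulf1.

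Lysosomal enzymes that break the chain down were more often higher, 5 of 8 tested against 1 lower, with a median log2 fold change of 0.29. The glucuronidase Gusb averaged 112 ± 6.64 CPM in KO and 59.1 ± 2.94 CPM in WT, the iduronidase Idua 12.6 ± 0.791 CPM in KO and 7.38 ± 0.196 CPM in WT, and Naglu 59.5 ± 5.49 CPM in KO and 42.0 ± 1.57 CPM in WT. The iduronate sulfatase Ids was the lower gene, at 97.7 ± 12.1 CPM in KO and 155 ± 10.03 CPM in WT.

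Syndecans can also carry chondroitin sulfate, and of 12 tested genes for that chain 5 were higher and 5 lower. The 4-O-sulfotransferase Chst11, Chst15 and the epimerase Dse fell to 0.273 ± 0.055, 0.627 ± 0.201 and 1.93 ± 0.345 CPM in KO, against 35.6 ± 16.9, 33.9 ± 1.87 and 31.0 ± 1.62 CPM in WT. The sulfotransferases Ust and Chst7 rose to 11.4 ± 2.92 and 13.9 ± 1.05 CPM in KO, against 1.74 ± 0.29 and 3.46 ± 0.836 CPM in WT, and the epimerase Dsel to 59.8 ± 10.1 CPM in KO, against 22.5 ± 3.31 CPM in WT. Without KO replicate 1, KO replicate 3, WT replicate 2 or WT replicate 3 the count of higher genes was 3. Chpf2 did not pass, at 64.2 ± 6.30 CPM in KO and 67.8 ± 5.69 CPM in WT.

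**Figure D5:**
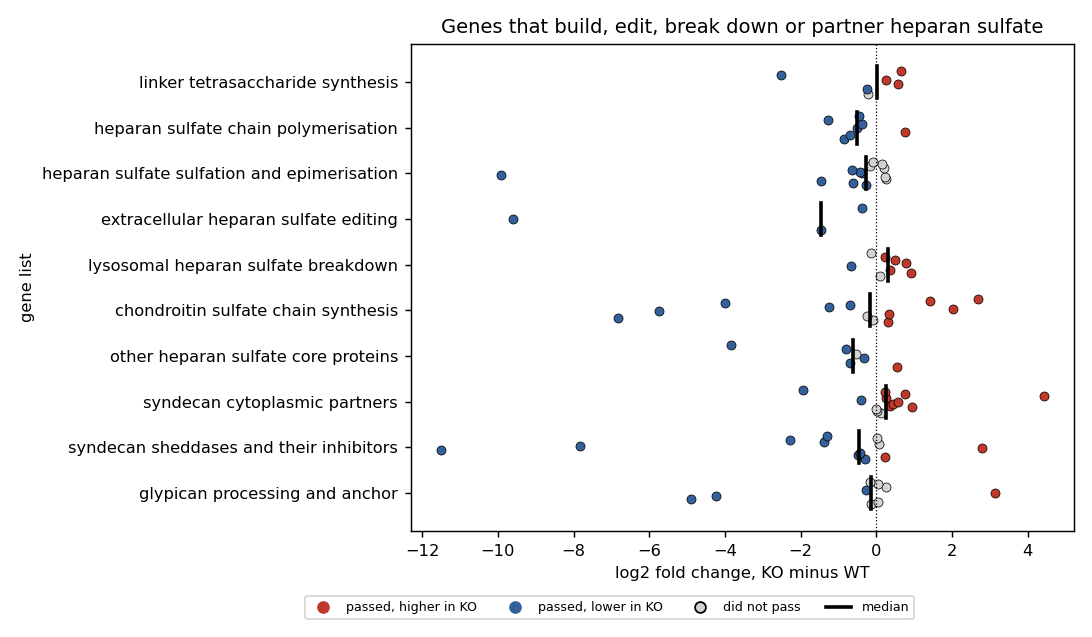
Log2 fold change, KO minus WT, of the tested genes of 10 lists, with 1 point for each gene and a bar at the list's median. Of the points for chain polymerisation 6 of 7 lie below 0, and the points farthest to the left are Mmp14, Hs6st2 and Sulf1.

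Partners of the syndecan tail were mostly higher in KO, 8 of 13 tested against 2 lower, with a median log2 fold change of 0.26. Ezr, an ERM protein that links membranes to actin, had 1292 ± 38.4 CPM in KO and 674 ± 61.1 CPM in WT (0.94, adjusted p = 6.09e-05). The kinase Src averaged 172 ± 14.2 CPM in KO and 102 ± 6.21 CPM in WT, and Prkca, the protein kinase C alpha that Sdc4 binds, 110 ± 16.8 CPM in KO and 73.3 ± 4.50 CPM in WT. The Rac exchange factor Tiam1 fell to 10.5 ± 2.51 CPM in KO, against 39.5 ± 2.88 CPM in WT, and the small GTPase Rhog to 29.4 ± 1.70 CPM in KO, against 39.1 ± 1.69 CPM in WT. The crosslinker Actn4 did not pass, at 1025 ± 75.5 CPM in KO and 944 ± 82.4 CPM in WT.

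Of 12 tested genes for proteases that can shed syndecan ectodomains, or for their inhibitors, 2 were higher and 8 lower. Mmp14, a membrane collagenase that cleaves Sdc1, had 0, 0 and 0.133 CPM in KO and 150, 128 and 138 CPM in WT, and Mmp2 0.544 ± 0.187 CPM in KO and 125 ± 15.7 CPM in WT. The inhibitor Timp1 averaged 7.004 ± 0.492 CPM in KO and 34.6 ± 7.76 CPM in WT. The membrane protease Mmp15 rose to 432 ± 117 CPM in KO, against 61.1 ± 4.79 CPM in WT. The sheddase Adam17 averaged 85.4 ± 4.51 CPM in KO and 73.1 ± 1.55 CPM in WT (adjusted p = 0.0226), and did not pass without KO replicate 1 (0.0916), WT replicate 2 (0.0876) or WT replicate 3 (0.0556), which left 1 higher gene. Timp2 did not pass, at 1064 ± 129 CPM in KO and 1054 ± 67.0 CPM in WT.

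Of 9 tested genes that cut glypicans or handle their anchor, 1 was higher and 3 lower. The proprotein convertase Pcsk6 rose to 53.3 ± 12.1 CPM in KO, against 6.59 ± 3.76 CPM in WT. Its relative Furin, which cleaves glypicans, did not pass at 179 ± 8.96 CPM in KO and 199 ± 14.3 CPM in WT. Pcsk7 averaged 37.99 ± 0.947 CPM in KO and 45.6 ± 2.22 CPM in WT (adjusted p = 0.0158), and did not pass without KO replicate 1 (0.0571), WT replicate 2 (0.0568) or WT replicate 3 (0.0535). Without KO replicate 3 the count of higher genes was 2. Other core proteins that carry heparan sulfate, always or in some forms, were lower in 4 of 6 tested and higher in 1. Tgfbr3, or betaglycan, fell to 11.2 ± 1.71 CPM in KO, against 159 ± 17.1 CPM in WT, Nrp1 to 243 ± 48.1 CPM in KO, against 420 ± 44.7 CPM in WT, and Cd44 to 107 ± 19.6 CPM in KO, against 172 ± 26.6 CPM in WT. Agrin (Agrn), of the glomerular basement membrane, rose to 1563 ± 38.5 CPM in KO, against 1069 ± 71.9 CPM in WT. Perlecan (Hspg2) was at 942 ± 257 CPM in KO and 1365 ± 353 CPM in WT. It missed the threshold (log2 fold change -0.54, adjusted p = 0.0891), except without WT replicate 1 (-0.77, adjusted p = 0.0208).

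Ligands that bind heparan sulfate split evenly, with 6 higher and 7 lower of 17 tested. Fgf1 rose to 59.9 ± 16.7 CPM in KO, against 1.07 ± 0.058 CPM in WT, Wnt7b to 530 ± 42.5 CPM in KO, against 133 ± 14.9 CPM in WT, and Hbegf to 202 ± 16.6 CPM in KO, against 131 ± 11.1 CPM in WT. The chemokine Cxcl12 had 0.0492, 0.0571 and 0.0796 CPM in KO, against 227, 209 and 160 CPM in WT. Wnt5a fell to 19.6 ± 5.09 CPM in KO, against 710 ± 56.6 CPM in WT, and pleiotrophin (Ptn) was left with 2 reads in KO, against 583 in WT. Pdgfb did not pass, at 216 ± 24.8 CPM in KO and 190 ± 69.6 CPM in WT.

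Of 19 tested receptors that syndecans or glypicans serve, 4 were higher and 11 lower, with a median log2 fold change of -0.47. Itgb4 and Itga6, which pair as the laminin receptor of hemidesmosomes, had 602 ± 171 and 262 ± 24.9 CPM in KO, against 0.643 ± 0.214 and 69.8 ± 8.57 CPM in WT, and Itgb1 had 4337 ± 685 CPM in KO and 2216 ± 105 CPM in WT. Among those that fell were the FGF receptors Fgfr1, at 34.5 ± 3.74 CPM in KO and 79.5 ± 14.6 CPM in WT, and Fgfr3, at 0.447 ± 0.087 CPM in KO and 9.53 ± 1.56 CPM in WT. The Wnt receptor Fzd7 fell to 52.6 ± 9.14 CPM in KO, against 147 ± 2.28 CPM in WT. Itgb5 did not pass at 345 ± 47.2 CPM in KO and 429 ± 59.0 CPM in WT (adjusted p = 0.0675), except without KO replicate 1 (0.0405), without WT replicate 2 (0.024) or with libraries scaled by their totals (0.0451).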

How the data were processed

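RNA was sequenced from 3 libraries of a Myosin 1e KO line and 3 of a WT podocyte line, with stranded mRNA libraries made from total RNA per the labels' protocols. Trimmomatic 0.39, STAR 2.7.3a, featureCounts, Subread 1.6.4, edgeR and GRCm38 are named in the submitters' processing notes. No source used here gives the annotation, strand setting, filter or prior count. The authors deposited 1 table of log2 CPM.

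All columns share a lowest value of -5.26. With that value subtracted in linear units, 100% of entries came out as whole reads to within 0.001 when divided by what 1 read is worth in the library, which gave reads and CPM without the prior. The test was limma 3.58.1 in R 4.3.3, with an intensity trend in the variance prior, on the genes that exceeded 0 log2 CPM in 3 or more of the 6 libraries. In a simulation of KO against WT (dispersion 0.01), 100% of 100 genes changed 2-fold and 100% of 100 changed 4-fold were called, and 6 of 11889 unchanged genes. Every gene was simulated with the same dispersion, so this checks the code and does not give the power for genes that vary more. The coefficient of variation was 26.5% in KO and 24.3% in WT for Gpc1, and 46.9% in KO for Gpc6. The 187 listed genes under the filter were not tested. Members and gene lists were chosen with earlier results of these data known, the lists from textbook knowledge. From each list the text names up to 3 genes that rose and 3 that fell most, with a group mean of at least 5 CPM and groups that do not overlap, and the most abundant gene that did not pass; some of these are not reported here. Coordinates and exon lengths come from GENCODE M21 and promoters from RefSeq (GRCm38.p6), both counted from 1. Counting error only is covered by read totals. The 15 alternatives were limma-voom on the recovered reads, no intensity trend, no filter, a stricter filter, 2 larger priors, 2 other scalings, the replicate number as a block, and leaving out each of the 6 libraries.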

Additional observations from a re-analysis of the deposited data

How the results depend on the processing

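The directions of Sdc1, Sdc2, Sdc3, Sdc4, Gpc4 and Gpc6 held under all 15 alternatives, and their calls held too except for Sdc3. Leaving out 1 library at a time gave log2 fold changes of 0.54 to 1.03 for Sdc3, which lost its call without KO replicate 1, WT replicate 2 or WT replicate 3, so that 1 to 2 members passed as higher. The same step gave -0.085 to 0.30 for Gpc1, -0.049 to 0.51 for Pdgfb and -0.080 to 0.095 for Timp2, none of which passed in any of these fits. Timp2 also turned, to -0.0028, when libraries were scaled by their totals. The cause was not tested. Of 77 named list genes, 12 changed their call under at least 1 alternative. Among them Nes was called higher (adjusted p = 0.0328) but not without KO replicate 1 (0.118), WT replicate 1 (0.0912) or the intensity trend (0.0577). Csf1r (adjusted p = 0.0505) passed in 7 alternatives.

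Taken over 12616 genes together, the replicate numbers gave no clear pairing of the libraries. Deviations from the group means correlated at 0.10, 0.08 and -0.10 for numbers 1, 2 and 3. KO libraries 2 and 3 did not correlate best with their own number. For Sdc1, Sdc3 and Gpc1, however, replicate 1 was the highest library in each group. Whether single genes share a replicate effect was not tested, and correlations over all genes cannot show it. With the replicate block 4218 genes were higher and 4177 lower, against 4329 and 4261 without it, and 2 members were higher and 4 lower in both fits. B3gat3 (adjusted p = 0.0515), Nes (0.068) and Extl1 did not pass with the block, and Csf1r did (0.0308). The lowest depth concerns Gpc6, with 375 reads in the KO group.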
